A study of Mus musculus with 8 samples.

Results

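Rnf141 and Cdsn are 2 of the 19505 genes measured in mesenchymal stromal cells in which Irf7 was knocked down. They were chosen by name, as genes that stood out as lower with the knockdown although neither belongs to the known interferon response, and each had 1 probe set (TC0700004659.mm.2 for Rnf141, TC1700000694.mm.2 for Cdsn). The cells came from the inguinal fat pad of male FVB mice aged 12 months, and the series concerns Irf7 in the ageing of these cells. There were 4 shIRF7 arrays (pLKO.1 with a hairpin against Irf7), 2 scramble arrays (pLKO.1 Scramble) and 2 empty vector arrays (pLKO.1 Empty vector), so every culture, controls included, had been infected with the lentiviral backbone pLKO.1. How many hairpins, infections, cultures or animals stood behind the replicates is not stated in the labels, so a p-value here reflects only how far these arrays differ, which technical variation alone could set. With 8 arrays the precision is limited.

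Rnf141 encodes a protein with a RING finger, the zinc-binding domain by which many ubiquitin ligases recruit their E2 enzyme. It was first described in testis, where it has been linked to spermatogenesis. Cdsn encodes corneodesmosin, a secreted adhesive glycoprotein of the corneodesmosomes that hold the outermost cells of the epidermis together. Skin proteases of the kallikrein family cut it when those cells are shed, and mice without it die of a defective skin barrier. Irf7, the targeted gene, encodes a transcription factor that binds interferon response elements in promoters and drives the production of type I interferon.

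The bases before each annotated start of the 2 genes show whether they carry the letters that interferon-related factors are known to bind. The sequences are from RefSeq (GRCm38.p6), are written 5′ to 3′ on the strand of the gene and end at the base before the start. Capitals mark a match, on either strand, to any of 3 patterns. The first is the core of the interferon-stimulated response element, written here as GAAA, any 2 bases and GAAA again. The second is the shorter core of an interferon regulatory factor site, AA, any 2 bases and GAAA, which every match to the first contains. The third is the interferon-gamma activated site, TTC, any 3 bases and GAA. Cdsn has 2 annotated starts. The promoters of Irgm1 and Bst2 are shown for contrast. Irgm1 encodes a GTPase of cell-autonomous defence and Bst2 encodes tetherin, which holds budding virions at the cell surface. Among interferon-stimulated genes whose promoter holds the first pattern, they had the closest profiles over the 8 arrays to Rnf141 and to Cdsn.
Rnf141, minus strand, chr7:110844382-110844631: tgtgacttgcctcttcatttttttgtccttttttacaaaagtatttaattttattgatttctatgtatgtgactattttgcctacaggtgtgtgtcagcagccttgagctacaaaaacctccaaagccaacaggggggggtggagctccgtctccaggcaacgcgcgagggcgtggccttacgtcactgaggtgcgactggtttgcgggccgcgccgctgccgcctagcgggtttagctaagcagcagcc
Cdsn, upstream start, plus strand, chr17:35542851-35543100: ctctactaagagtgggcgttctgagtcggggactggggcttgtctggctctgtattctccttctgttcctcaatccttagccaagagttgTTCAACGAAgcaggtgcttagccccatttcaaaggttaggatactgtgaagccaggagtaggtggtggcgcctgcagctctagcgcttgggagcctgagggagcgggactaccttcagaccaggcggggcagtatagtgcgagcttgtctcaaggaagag
Cdsn, downstream start, plus strand, chr17:35551878-35552127: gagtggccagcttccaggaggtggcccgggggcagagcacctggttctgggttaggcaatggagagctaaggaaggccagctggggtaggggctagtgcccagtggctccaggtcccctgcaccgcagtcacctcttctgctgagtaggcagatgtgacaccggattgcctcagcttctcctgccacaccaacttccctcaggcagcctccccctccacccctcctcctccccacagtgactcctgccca
Irgm1, minus strand, chr11:48871421-48871670: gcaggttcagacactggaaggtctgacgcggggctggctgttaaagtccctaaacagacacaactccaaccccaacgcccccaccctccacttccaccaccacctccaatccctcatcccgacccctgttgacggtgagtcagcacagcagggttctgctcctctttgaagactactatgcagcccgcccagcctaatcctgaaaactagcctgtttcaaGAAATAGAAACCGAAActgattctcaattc
Bst2, minus strand, chr8:71537473-71537722: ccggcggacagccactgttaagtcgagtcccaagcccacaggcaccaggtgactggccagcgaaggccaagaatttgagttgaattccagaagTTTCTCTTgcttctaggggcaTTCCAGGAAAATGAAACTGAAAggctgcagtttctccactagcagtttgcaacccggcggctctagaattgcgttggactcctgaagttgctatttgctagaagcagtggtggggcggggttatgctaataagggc

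Windows of 250 bases before and 50 after each start were searched on both strands. The response element core had 0 matches in the Rnf141 window and 0 in both Cdsn windows. It was present in 3.35% of the 19143 promoter windows of measured genes, and by gene in 3.94%, against 14 of 26 interferon-stimulated genes with a promoter sequence (53.8%). The shorter core, present in 21.6% of windows, had 0 matches for Rnf141 and 1 for Cdsn, AAGAGAAA, which begins at base 16 after the upstream start. By gene the shorter core was present in 24.7%, and in 73.1% of the 26 interferon-stimulated genes. The interferon-gamma activated site, present in 7.75% of windows, matched at base -160 of the upstream Cdsn start as TTCAACGAA, a site that reads as a match on both strands. By gene that pattern was present in 9.02%, and in 26.9% of the 26 interferon-stimulated genes. The window of Irf7 itself had 0 matches to each of the 3 patterns. The letters in these windows are a description and do not show whether a factor binds there.

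Rnf141 measured 7.69, 7.73, 7.52 and 7.45 on the log2 scale in shIRF7 replicates 1 to 4, against 9.57 and 9.65 in scramble and 9.40 and 9.59 in empty vector. All 4 shIRF7 arrays lay below all 4 controls with a gap of 1.68 between the groups, and the arrays within each side lay close together. The mean was 7.60 ± 0.133 in shIRF7 and 9.55 ± 0.104 in the controls (SD, n = 4 each), a log2 difference of -1.96. The difference was -2.01 from scramble and -1.90 from empty vector, so the choice of control made little difference. It was -1.80 between arrays of replicate number 1 and -1.89 between those of replicate number 2, though shared numbers are not known to pair shIRF7 with the controls. In these bulk samples fewer cells expressing a gene and less RNA per cell cannot be told apart.

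Cdsn measured 6.47, 6.13, 5.88 and 6.83 in shIRF7 replicates 1 to 4, against 11.09 and 9.72 in scramble and 8.79 and 8.73 in empty vector. The shIRF7 arrays again lay below every control, with a gap of 1.90, but here the controls were the side that spread. The mean was 6.33 ± 0.410 in shIRF7 and 9.58 ± 1.10 in the controls (SD, n = 4 each), a log2 difference of -3.26. Set against scramble the difference was -4.08 and against empty vector -2.43, and the size of the Cdsn change therefore depended on the control. The difference was -3.47 between arrays of replicate number 1 and -3.10 between those of replicate number 2.

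Both genes were above background in the controls and not in the knockdown. They exceeded the 95th percentile of the negative control probe sets on 4 of 4 control arrays and on 0 of 4 shIRF7 arrays, with empty vector replicate 2 only 0.086 above that line for Cdsn. With that percentile in place of the dimmer shIRF7 values, the mean of the 4 controls was brighter than shIRF7 by at least 2.23-fold for Rnf141 and at least 2.28-fold for Cdsn. For Cdsn the bound is smaller against empty vector alone, whose mean was 8.76 where that percentile averaged 8.39 in shIRF7. Every shIRF7 value still lay above the median of the negative controls, by 2.97 or more for Rnf141 and 1.34 or more for Cdsn. Negative control medians were 4.18 to 4.56 in shIRF7 and 4.21 to 4.56 in the controls, a spread far smaller than either difference.

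**Figure D1:**
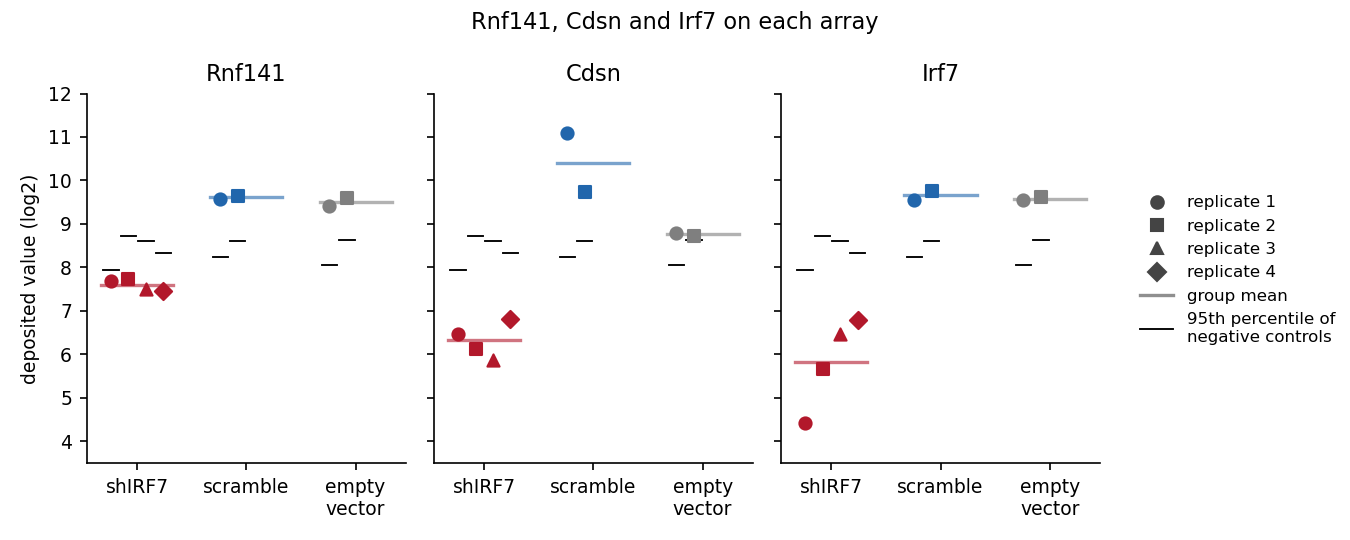
Deposited log2 values of Rnf141, Cdsn and Irf7 on each array, with shIRF7 left of scramble and empty vector; markers are replicates, coloured lines are group means and short black lines are the 95th percentile of negative controls on that array. Rnf141 is tight on both sides (7.45 to 7.73 in shIRF7, 9.40 to 9.65 in the controls), Cdsn spreads in the controls (8.73 to 11.09) and Irf7 spreads in shIRF7 (4.42 to 6.79).

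The members were picked from shIRF7 against both controls, so no test of them in that comparison is given. As background, limma called 6 of 19505 genes lower in it (0.0308%), and 547 genes (2.80%) had every shIRF7 value under every control. Irf7, the targeted gene, was not among the 6 despite a difference of -3.79. A gene that limma did not call is therefore not shown to be unchanged. The count of 6 rested on single arrays: it was 28 without shIRF7 replicate 1, 3 without shIRF7 replicate 4 and 2 without empty vector replicate 2. No gene passed (0) without shIRF7 replicate 2, shIRF7 replicate 3, scramble replicate 1 or scramble replicate 2.

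The difference of scramble from empty vector was not used in the choice of these genes, and it asks whether a hairpin that targets nothing moves them. Its spread in limma was estimated from every array, shIRF7 included, so its p-values and intervals are not independent of that choice. Rnf141 averaged 9.61 ± 0.052 in scramble and 9.50 ± 0.131 in empty vector (SD, n = 2 each), a log2 difference of 0.11 with a 95% interval of -0.33 to 0.55. Limma across all genes gave adjusted p = 0.9999. Any difference of Rnf141 between the controls was thus smaller than its difference from shIRF7. Cdsn averaged 10.41 ± 0.963 in scramble and 8.76 ± 0.044 in empty vector (SD, n = 2 each), and both scramble arrays lay above both empty vector arrays, as in 10.5% of all genes. The log2 difference of Cdsn was 1.65 (SE 0.46, 95% interval 0.57 to 2.72, 3.13-fold). In limma across all genes its unadjusted p was 0.00782, 33rd of 19505 genes, and its adjusted p was 0.9999, so it did not pass. In limma on the control arrays alone its unadjusted p was 0.0305 (SE 0.515) and its adjusted p was 0.9999. Between arrays of replicate number 1 the difference of Cdsn was 2.30 and between those of number 2 it was 0.997, and without scramble replicate 1 it was 0.97. Limma called 0 genes in this comparison (0%), also with trend and robust fitting, and 376 (1.93%) had an unadjusted p under 0.05.

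Irf7 itself measured 4.42, 5.66, 6.47 and 6.79 in shIRF7 replicates 1 to 4, against 9.56 and 9.76 in scramble and 9.55 and 9.61 in empty vector. Like Rnf141 and Cdsn it was above background on 0 of 4 shIRF7 arrays and on 4 of 4 control arrays, and its lowest value lay 0.23 above the median of the negative controls. The 3 genes thus shared a split into low knockdown and high control arrays. The order of the shIRF7 arrays under the background line was not read for any of them. Because the arrays form these 2 clusters of 4, no correlation could be tested.

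Set relative to their control means, the shIRF7 arrays lay at -2.10 to -1.83 for Rnf141 and at -3.70 to -2.76 for Cdsn. Among the controls, where all 3 genes were above background, Irf7 ranged over 0.21 and Rnf141 over 0.24, whereas Cdsn ranged over 2.36. A list of 36 measured interferon-stimulated genes, the antiviral effectors made in response to interferon, had a mean of -2.37, -1.76, -1.68 and -1.10 from the control mean in shIRF7 replicates 1 to 4, against -0.30 to 0.19 in the controls. Of these genes 21 were above background on at least 4 arrays, where 6746 of all 19505 genes were.

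**Figure D2:**
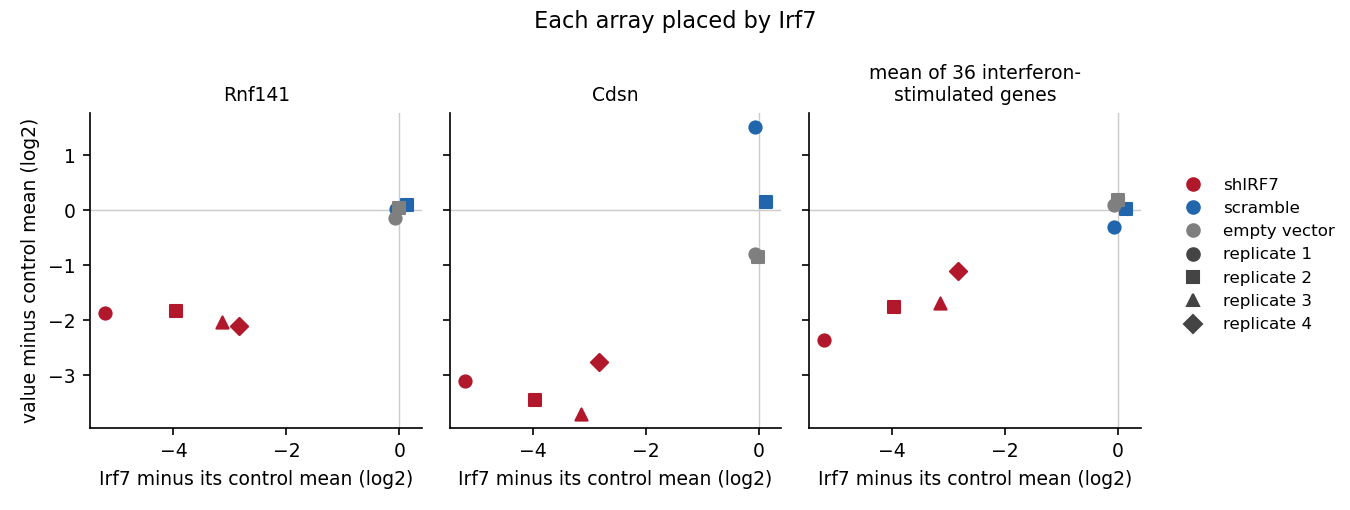
Each array placed by Irf7 minus its control mean (x axis, log2) and by Rnf141, Cdsn or the mean of 36 interferon-stimulated genes minus control mean (y axis, log2); colours are groups and markers are replicates. The shIRF7 arrays lie apart from the controls in every panel (-2.10 to -1.83 for Rnf141, -3.70 to -2.76 for Cdsn, -2.37 to -1.10 for the list), Cdsn spreads among the controls, and the 3 single genes are not above background in shIRF7.

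As a group the interferon-stimulated genes were lower in shIRF7, and Rnf141 and Cdsn are not on that list. Its median log2 difference was -1.43, against 0.0017 over all genes. In 26 of its 36 members all shIRF7 values lay below all controls, where 2.80% of all genes did, and limma called 3 members lower, where it called 0.0308% of all genes. Those 3, named after their values were seen, were Adar, an editor of double-stranded RNA, Bst2 and Ifi27l2a, an interferon-induced gene. Adar was above background on 8 arrays. Bst2 exceeded the line on 4 of 4 control arrays and 0 of 4 shIRF7 arrays. Ifi27l2a exceeded it on 3 of 4 control arrays and 0 of 4 shIRF7 arrays, too few to count as above background. Adar averaged 9.80 ± 0.216 in shIRF7 and 11.43 ± 0.253 in the controls (SD, n = 4 each). The members above background with the largest differences were others, and limma did not call them. Usp18, which strips Isg15 from proteins and damps interferon receptor signalling, averaged 7.90 ± 1.22 in shIRF7 and 11.56 ± 0.582 in the controls (SD, n = 4 each). Oasl2, a member of the oligoadenylate synthetase family, averaged 8.93 ± 1.35 in shIRF7 and 12.44 ± 0.052 in the controls. Ifit1, which binds viral RNA, averaged 6.58 ± 1.34 in shIRF7 and 10.07 ± 0.424 in the controls. All of these exceeded the line on 4 of 4 control arrays, but in shIRF7 Usp18 and Ifit1 did so on 1 of 4 arrays and Oasl2 on 3 of 4.

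Profiles were compared as the root-mean-square distance over the 8 arrays between log2 values set relative to each gene's control mean, a description with no test. Gltp, a glycolipid transfer protein, lay closest to Rnf141 (0.26), followed by Hs2st1, a heparan sulfate sulfotransferase (0.29), and Ptpn21, a tyrosine phosphatase (0.31). Erlin2, an endoplasmic reticulum protein of the degradation pathway for calcium channels (0.34), and Ttc19, an assembly factor of respiratory complex III (0.35), came next. Their differences between shIRF7 and controls ran from -2.18 (Hs2st1) to -1.54 (Ttc19), a likeness that their choice sets. None of these 5 is on the interferon-stimulated list, but members of that list followed closely, with Adar at rank 6 of 17119 genes (0.36), Ifih1, a sensor of viral RNA, at rank 12 (0.41) and Mx2, an antiviral GTPase, at rank 23 (0.46). The median distance from Rnf141 was 0.86 over the 36 genes of the list, against 1.42 over all genes. These distances include the shIRF7 difference by which Rnf141 was chosen. Any list lower in shIRF7 tends to lie closer for that reason, and no likeness beyond it is shown. Irf7 lay at 1.48 from Rnf141, rank 10654 of 17119 genes. That distance includes the larger difference of Irf7 (-3.79, against -1.96 for Rnf141) and shIRF7 values of both genes under the background line.

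Gltp measured 9.83, 9.85, 9.84 and 8.92 in shIRF7 replicates 1 to 4, against 11.61 and 11.51 in scramble and 11.43 and 11.34 in empty vector. It was the only one of the 5 above background on all 8 arrays. Its shIRF7 replicate 4 lay below the other 3. Hs2st1 measured 7.93, 8.03, 7.495 and 7.15 in shIRF7, against 9.61 and 9.77 in scramble and 10.05 and 9.89 in empty vector. Its groups did not overlap.

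The closest genes to Cdsn lay farther away than those of Rnf141. The distances have no common scale, since Cdsn had the larger difference and spread more among the controls. The closest were Thbd, which encodes the anticoagulant receptor thrombomodulin (0.79), Ahr, the aryl hydrocarbon receptor (0.90), and Usp18 (1.01). Phf11d, a PHD finger protein (1.01), and Tlr1, a receptor for bacterial lipopeptides (1.01), came next. Usp18, at rank 3, is on the interferon-stimulated list, as are Oasl2 at rank 6 (1.02) and Bst2 at rank 8 (1.04). Thbd measured 9.26, 7.22, 7.48 and 8.11 in shIRF7, against 12.03 and 10.002 in scramble and 11.07 and 9.80 in empty vector. Like Cdsn it was highest in scramble replicate 1. Ahr measured 7.91, 5.39, 4.91 and 6.76 in shIRF7, against 10.86 and 8.86 in scramble and 9.61 and 7.44 in empty vector, and its groups overlapped. Tlr1 was above background on 0 of 8 arrays. Irf7 ranked 9 (1.04) and Rnf141 ranked 20 (1.16) of 17119 genes by closeness to Cdsn. The rank of Irf7 reflects in part the sizes of the 2 differences (-3.26 for Cdsn, -3.79 for Irf7). In shIRF7 the values of both genes lay under the background line. The median distance from Cdsn was 1.63 over the interferon-stimulated list, against 2.43 over all genes. These distances likewise include the shIRF7 difference by which Cdsn was chosen, so they show no likeness beyond it.

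**Figure D3:**
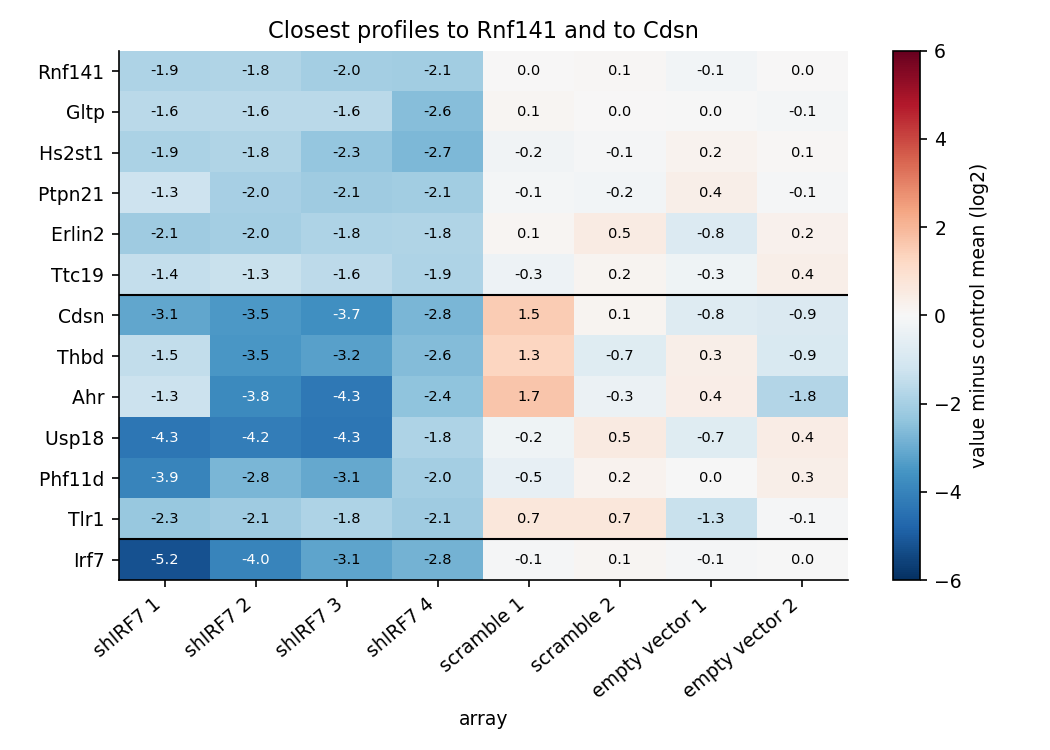
Log2 value minus control mean on each array (columns, shIRF7 first) for Rnf141 with its 5 closest profiles, Cdsn with its 5 closest profiles, and Irf7 (rows). Every row is lower on the shIRF7 arrays on average, single arrays differ within rows of both blocks (Gltp in shIRF7 replicate 4, Ptpn21 in replicate 1), and scramble replicate 1 stands high for Cdsn (1.5), Thbd (1.3) and Ahr (1.7).

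On chromosome 7, Rnf141 shares its far end with Ampd3, an AMP deaminase on the opposite strand whose annotated span overlaps it. Ampd3 measured 12.03, 11.84, 11.90 and 11.48 in shIRF7, against 13.13 and 13.33 in scramble and 12.54 and 13.75 in empty vector, and the groups did not overlap. Its mean difference was -1.38, and it was -0.80 and -1.70 between arrays of replicate numbers 1 and 2. Limma did not call Ampd3, and whether probes of either gene pick up the other was not tested. Adm, the next gene on that side, which encodes the vasodilator peptide adrenomedullin, differed by -1.85. Its groups overlapped, with 13.33 in shIRF7 replicate 1 and 10.99 to 11.44 in the other shIRF7 arrays, against 12.79 to 14.34 in the controls.

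Farther out on the same side, Sbf2, a myotubularin-related protein, differed by -0.096. On the other side of Rnf141, Lyve1, a hyaluronan receptor of lymphatic vessels, and Mrvi1, a partner of the inositol trisphosphate receptor, were above background on 0 of 8 arrays. Ctr9, a subunit of the Paf1 transcription elongation complex, averaged 9.43 ± 0.219 in shIRF7 and 9.96 ± 0.217 in the controls (SD, n = 4 each). Its groups did not overlap (difference -0.54), and limma did not call it. Irf7 is also on chromosome 7, though not among these neighbours.

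Cdsn lies on chromosome 17, next to class I genes of the major histocompatibility complex. None of the 6 nearest measured genes had shIRF7 arrays all on the same side of the controls, as far as their signal allowed. Psors1c2, 2300002M23Rik, Gm9573 and Mucl3 were above background on 0 of 8 arrays. Cchcr1, a coiled-coil protein, differed by -0.098. Tcf19 measured 11.002, 8.99, 9.24 and 10.63 in shIRF7, against 8.65 and 11.54 in scramble and 6.02 and 11.42 in empty vector. It was low in replicate 1 and high in replicate 2 of both controls, a split that Cdsn did not show.

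**Figure D4:**
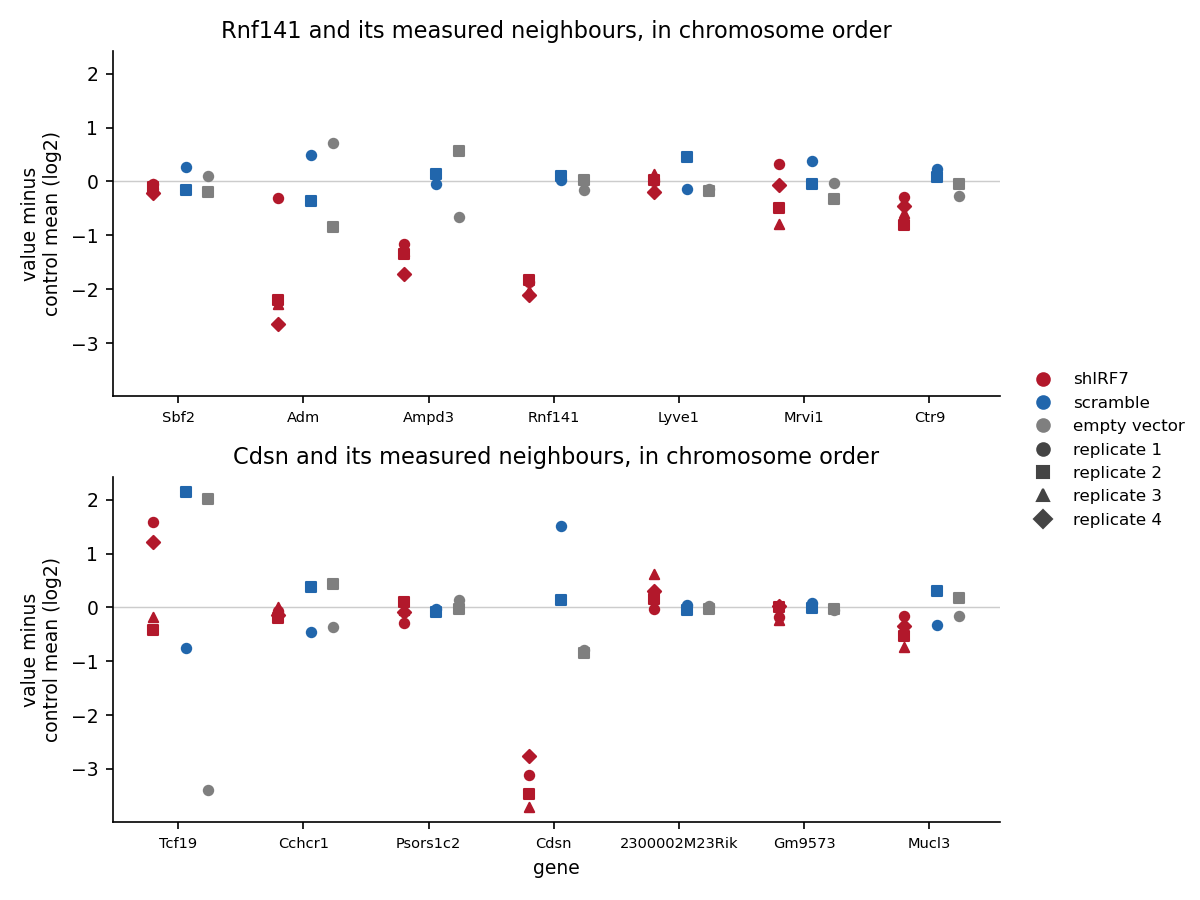
Log2 value minus control mean for Rnf141 (top) and Cdsn (bottom) among the 3 nearest measured genes on each side, in chromosome order; colours are groups, markers are replicates. Around Rnf141, Ampd3 (-1.38) and Adm (-1.85) are also lower on average in shIRF7, whereas around Cdsn the shIRF7 arrays are set apart from all controls for Cdsn alone.

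The molecular partners of corneodesmosin almost all missed the background rule in these cells. Of all 19505 genes, 6746 were above background on at least 4 arrays. Missing that rule does not show that a gene is silent. Of 35 listed genes of the corneodesmosome and the cornified envelope 33 were measured, and 1 of them, Jup, was above background. Jup encodes plakoglobin, which also serves classical cadherin junctions outside the skin. It averaged 11.18 ± 0.392 in shIRF7 and 10.85 ± 1.74 in the controls (SD, n = 4 each). The Jup controls split by replicate number, with 12.37 in scramble and 12.34 in empty vector for number 1, against 9.33 and 9.36 for number 2. The difference of shIRF7 from controls was -0.67 between arrays of number 1 and 1.54 between those of number 2. Limma called 0 of the 33 genes in shIRF7 against both controls, and the list median was 0.0055 (0.0017 over all genes). The shIRF7 arrays lay below all controls in 3 members and above them in 1, where 2.80% and 2.58% of all genes did so. The desmosomal cadherins Dsg1a and Dsc1 and the proteases Klk5 and Klk7 were among the 32 members without signal above background.

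Of 13 keratinocyte and epithelial markers, 0 were above background by that rule, which 6746 of all 19505 genes met. Krt5, Krt14, Epcam and Cdh1 were among the 13, and Cldn1 exceeded the line on 1 array. Their summed signal, as log2 of the sum, ranged from 8.02 to 9.08 in shIRF7 and from 7.62 to 8.56 in the controls. With no marker above background, that sum is background signal and bears on no cell type. For Rnf141, 0 of 15 male germ cell markers were above background, with summed signals, again background, of 7.74 to 8.19 in shIRF7 and 7.62 to 8.10 in the controls. Of 13 stromal markers, which check the label of the cells, 10 were above background, with Pdgfrb, Eng, Cd44, Itgb1, Vcam1, Alcam, Cd34, Col1a1 and Col1a2 above it on all 8 arrays. Thy1 was above it on 2 arrays and Nt5e and Lum on 0, so they missed the rule. Markers of blood and of endothelium had 0 of 8 each above background, and adipocyte markers 3 of 8 (Fabp4, Pparg and Lpl). The summed stromal signal was lower in shIRF7 (17.88 to 17.99) than in the controls (18.18 to 18.75). The mean over the 13 genes overlapped, at -0.53 to 0.15 from the control mean in shIRF7 and -0.41 to 0.63 in the controls. Members went both ways, with differences of -1.34 for Cd44, 1.10 for Alcam and 1.22 for Dcn. The lowest difference of the list, -2.15, was in a member not above background. The list median was -0.10, and 2 of 13 had every shIRF7 array below every control, where 2.80% of all genes did. Limma called 0 of the 13. The part of cell composition in the differences of Rnf141 and Cdsn was not tested.

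**Figure D5:**
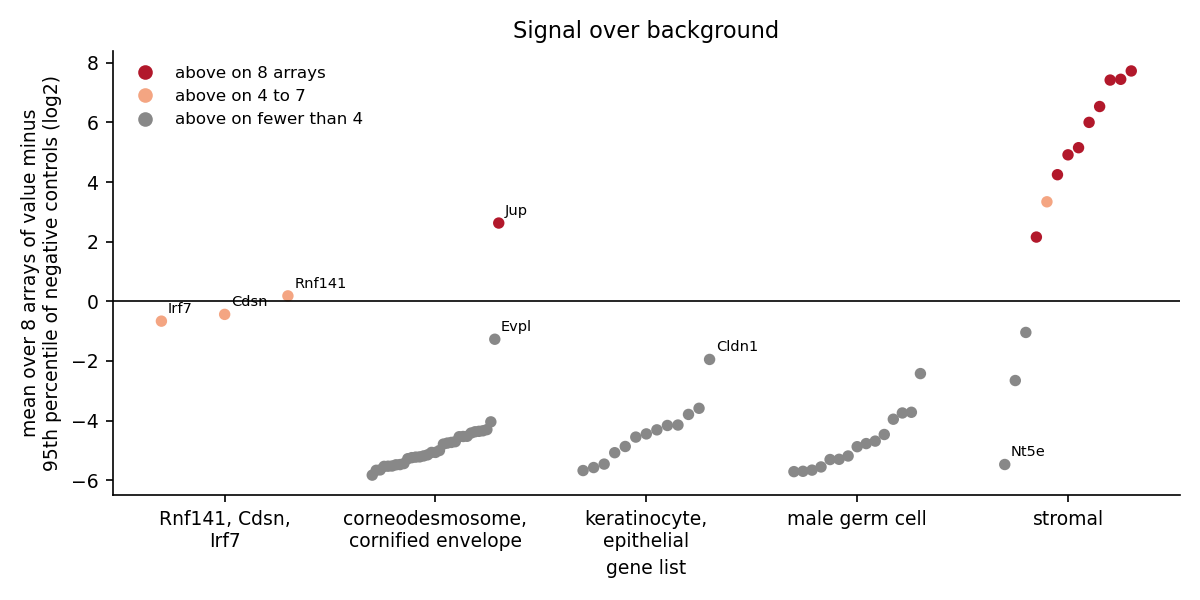
Mean over 8 arrays of the log2 value minus the 95th percentile of negative controls (y axis) for each gene (points) of 5 lists, coloured by how many arrays exceed that line. Jup is the only gene of the corneodesmosome list above the line, no keratinocyte or germ cell marker reaches it, and most stromal markers are well above it. On this average over knockdown and control arrays Rnf141 lies at 0.18, and Cdsn (-0.44) and Irf7 (-0.66) lie under the line.

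Other genes named as RING finger proteins lay near the level of all genes. Of 71 other measured genes with an Rnf symbol 38 were above background, where 6746 of all 19505 genes were. Limma called 0 of the 71 in shIRF7 against both controls. The median difference was 0.0050. The shIRF7 arrays lay below all controls in 2 (2.82%) and above them in 4 (5.63%), against 2.80% and 2.58% of all genes. Rnf11, an adaptor of the A20 ubiquitin-editing complex, had the largest difference among those above background, -0.94, with 10.08, 9.81, 9.70 and 9.39 in shIRF7, against 11.12 and 10.52 in scramble and 10.91 and 10.19 in empty vector. Rnf185, a ligase of endoplasmic reticulum-associated degradation, differed by 0.85 and Rnf115, another ligase, by 0.62.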

How the data were processed

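Total RNA of 8 cell samples was profiled on Affymetrix mouse arrays, with 1 array per sample. The authors deposited a log2 value for each probe set and array. Per the submitters' processing notes these came from RMA, run in Affymetrix Expression Console 1.4.1.46; RMA corrects background, normalizes between arrays and summarises probes. The log base was read from the range of the values, which reached 18.9. That is above 16, the log2 of the brightest reading of a 16-bit scanner, so folds rest on that reading of the scale. No build is named for the probe sets. All 8 columns of the table were used.

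A single gene symbol was available for 19572 of 28846 probe sets and none for 9274. Every one of those gene identifiers was found among RefSeq genes of GRCm38.p6. Where a gene had several probe sets (55 genes) the brightest was kept, leaving 19505 genes. Limma 3.58.1 (R 4.3.3) was run with a mean per group, 5 residual and 2.68 prior degrees of freedom, and Benjamini-Hochberg adjustment over all genes at 0.05. The procedure was tested on simulated data. A gene counted as above background where it exceeded the 95th percentile of 5222 negative control probe sets on at least 4 arrays.

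Both genes were chosen because they stood out in shIRF7 against both controls, and the gene lists and tests were chosen with earlier results of these data known. Their differences in that comparison therefore carry no test, and only the contrast between the controls was tested. The genes named are Rnf141, Cdsn and Irf7, the 5 closest profiles to each of the first pair, the 3 nearest measured genes on each side, and, per list, the members above background with the largest difference (up to 3). Other genes named for their markers or roles were picked after their values were seen. Predicted genes, Riken clones, small RNAs and olfactory or vomeronasal receptors were left out of the closest profiles. Alternatives were cyclic loess or quantile normalization, trend and robust options in eBayes, leaving dim genes out, every probe set as a feature, pooled controls, the control arrays alone, the replicate number as a block, and leaving out each array.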

Additional observations from a re-analysis of the deposited data

Results flagged for a closer look

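Within the 4 shIRF7 arrays, 46 genes and list means were checked for an array far from the others, and 5 had such an array, where chance gives about 1 in 20. Rnf141, Cdsn and Irf7 were not among them. Gltp, the closest profile to Rnf141, measured 8.92 in shIRF7 replicate 4 and 9.83 to 9.85 in the other shIRF7 arrays. Ptpn21 measured 7.83 in shIRF7 replicate 1 and 6.96 to 7.08 in the others. Usp18, among the closest profiles to Cdsn, measured 9.73 in shIRF7 replicate 4 and 7.24 to 7.40 in the others. Dcn, a stromal proteoglycan gene, measured 7.62 in shIRF7 replicate 1 and 13.7 to 14.1 in the others. Fabp4, a fatty acid binding protein of adipocytes, measured 9.01 in shIRF7 replicate 1 and 7.03 to 7.23 in the others.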

How the results depend on the processing

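Under all 15 alternatives each, the difference of shIRF7 from both controls moved by less than 1 within-group SD for Rnf141, Cdsn and Irf7. Leaving out single arrays gave -2.004 to -1.909 for Rnf141 and -3.60 to -2.92 for Cdsn, and the other alternatives gave -1.97 to -1.85 and -3.29 to -3.26. Scramble minus empty vector missed the limma threshold under all 15 alternatives: leaving out single arrays gave 0.021 to 0.21 for Rnf141 (adjusted p 0.783 or more) and 0.97 to 2.33 for Cdsn (adjusted p 0.394 or more). The count of 6 genes called in shIRF7 against both controls was 3 with trend and robust fitting, 2 with quantile normalization, 28 with both controls as 1 group, 0 with the replicate block, and 0 to 28 when single arrays were left out. With the replicate number as a block, 2 residual degrees of freedom remained and the differences were -1.85 for Rnf141 and -3.29 for Cdsn. Deviations from the group means correlated between same-numbered scramble and empty vector arrays (0.758) but not between those and the same-numbered shIRF7 arrays (-0.310 to -0.161). The numbers were therefore not taken to pair shIRF7 with the controls. The main fit did not pair scramble with empty vector either. Negative control medians did follow the number in every group. In shIRF7, scramble and empty vector they were 4.18, 4.26 and 4.21 for number 1, against 4.56, 4.56 and 4.55 for number 2. Whether arrays of the same number shared a processing batch was not tested. With the replicate block, scramble minus empty vector for Cdsn was 1.65 in limma (SE 0.39, adjusted p = 0.9999). In shIRF7 the signal of both genes lay under the background line, which limits how large their differences can be read.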
